A study of Homo sapiens with 6 samples.

Results

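Chromosome 11 holds the largest share of the human odorant receptor repertoire, and the genes described here are its 172 protein-coding olfactory receptor genes. The rule took protein-coding genes of GENCODE 44 on chromosome 11 of hg38 whose symbol is OR followed by a number, letters and a number. The annotation holds 20033 protein-coding genes. The rule reads position and symbol and no domain call, but it was set with earlier results of these data known. Of the 172 genes, 55 were class I receptors (families OR51, OR52 and OR56) and 117 were class II receptors. Each was compared with the H3K9me3 domains of 4 ChIP-seq libraries of MCF10.DCIS.com, a human breast line that models ductal carcinoma in situ. In the control group, cells carried the empty lentiviral vector pSLIK-neo-EV. In the RAB5A group they carried pSLIK-neo-RAB5A, a doxycycline-inducible construct for the endosomal GTPase RAB5A. Both were stable populations selected with antibiotic from a single cell line, and both were grown as monolayers. The labels call the cells with pSLIK-neo-RAB5A RAB5A-expressing and give neither dose nor duration of induction. The paper's ChIP-seq methods do not say whether the empty-vector cells received doxycycline. Each group had 1 library made with the antibody ab176916 (replicate 1) and 1 made with ab8898 (replicate 2), so n = 2 per group and the spread between replicates includes the difference between antibodies. No label says that the libraries came from separate cultures. The files hold domain positions and not expression, so the cell line could not be checked against marker genes. The paper reports a mean number of reads over its ChIP-seq samples. The lists carry no read counts, so libraries could not be compared for sequencing depth.

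Olfactory receptors are G protein-coupled receptors of the sensory neurons of the nose. Class I receptors resemble those of fish and lie together in 1 cluster on the short arm of chromosome 11, interleaved with the globin genes, whereas class II receptors are found on many chromosomes. In olfactory neurons nearly all receptor genes are packed into heterochromatin that carries H3K9me3, and each neuron expresses 1 allele of 1 receptor. H3K9me3 is read by HP1 proteins and is typical of constitutive heterochromatin in most cells, breast epithelium included.

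In all 4 libraries, the same 54 of the 172 receptor genes had their transcription start inside an H3K9me3 domain (31.4%), and the remaining 118 were outside in all 4. Every one of the 54 was a class II gene. None of the 55 class I genes was in a domain in any library (0%), against 54 of 117 class II genes (46.2%). The share over all protein-coding genes was 7.20% in control ab176916, 7.57% in control ab8898, 7.21% in RAB5A ab176916 and 8.15% in RAB5A ab8898. Among the 1145 protein-coding genes of chromosome 11 that are not members, 16 started in a domain in each library (1.40%). Receptor genes of the same symbol pattern on 17 other chromosomes numbered 228, of which 54 were in domains with ab176916 in either condition (23.7%) and 55 with ab8898 (24.1%). Genes of a cluster share a domain and are not independent, so these shares are descriptions and were not tested.

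The 54 genes lay in 2 of the 5 domains of chromosome 11, and both had identical boundaries in the 4 libraries. The first, chr11:48200001-50400000 (2.2 Mb), held 10 receptor genes, and the second, chr11:54600001-56600000 (2 Mb), held 44. All positions are on hg38, and boundaries are resolved to the 200 kb bins of the calls. The 4.2 Mb between the domains spans the centromere and held the start of 0 protein-coding genes. The other domains of the chromosome, which lie at 38.2 to 43.4 Mb in its longest form and at chr11:114600001-116600000 and chr11:132000001-134000000, held 0 receptor genes.

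**Figure D1:**
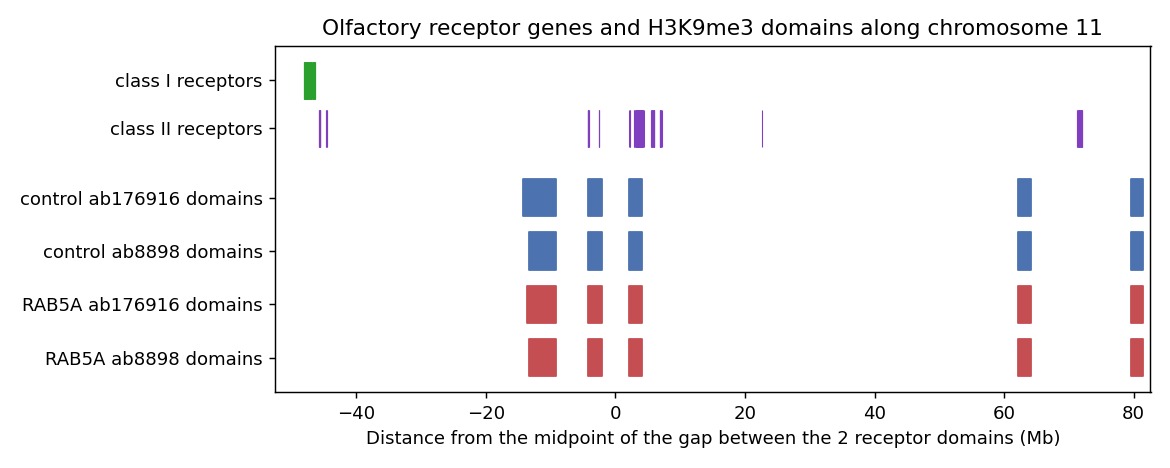
Receptor genes (ticks, by class) and H3K9me3 domains (bars, 1 row for each library) along chromosome 11, as distance in Mb from the midpoint of the gap between the 2 receptor domains. The 54 class II genes in domains flank the gap on either side, and the 55 class I genes lie at the far left, where no library has a domain.

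RAB5A and control libraries were compared gene by gene. The number of receptor genes in domains was 54 and 54 in the control libraries and 54 and 54 in the RAB5A libraries. The difference was 0, for class I (0 and 0) and class II (54 and 54) alike, with an SD of 0 in each group (2 libraries per group, p = 1 by exact permutation, two-sided, in a design that can give no p below 0.33). Calls were identical for all 172 genes in each of the 6 pairs of libraries. The length of the receptor clusters covered by domains was 2.35 Mb in each library, so this difference was 0 Mb as well (p = 1, same exact permutation test). The lists show called domains alone, and a change of signal inside a domain would not move these counts.

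The genes nearest to the domain edges are described first, since the position of an edge decides which genes are inside. The left edge of the second domain lay 4.00 kb before the start of OR4C46, and its right edge fell between OR5M10, which started 22.3 kb inside, and OR5M1, which started 14.9 kb outside. In the 200 kb window before that left edge, only 100000 bases had known sequence, and whether this set the edge was not tested. The left edge of the first domain lay 16.8 kb before the start of OR4B1. These distances are smaller than the 200 kb bins, so the calls of OR4C46, OR5M10, OR5M1 and OR4B1 rest on where a bin boundary falls. OR5M10 and OR5M1 are a nearly identical pair whose starts are 37.2 kb apart. Their coding sequences were both 945 bases long and differed at 27 bases (97.1% identical). The stretch from coding base 247 to 486 held 15 of the 27 differences, the most of any 240 bases, and is shown for both genes. The remaining differences lay elsewhere in the coding sequence. It lies at chr11:56577236-56577475 for OR5M10 and at chr11:56613017-56613256 for OR5M1, both on the minus strand, and capitals mark the differences.
OR5M10: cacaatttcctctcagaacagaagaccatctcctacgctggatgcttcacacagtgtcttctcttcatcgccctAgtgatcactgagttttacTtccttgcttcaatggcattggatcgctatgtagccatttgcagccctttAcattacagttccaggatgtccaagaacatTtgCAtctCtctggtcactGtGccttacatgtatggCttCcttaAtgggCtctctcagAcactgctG
OR5M1: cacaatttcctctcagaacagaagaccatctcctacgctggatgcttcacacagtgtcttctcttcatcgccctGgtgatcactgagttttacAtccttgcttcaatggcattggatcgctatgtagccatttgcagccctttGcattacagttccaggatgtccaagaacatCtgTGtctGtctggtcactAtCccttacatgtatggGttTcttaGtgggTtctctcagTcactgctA
Reads that cover a marked base can be assigned to 1 of the copies, and how reads divided between them over the rest of the genes was not tested, since the lists hold no reads.

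The RefSeq promoter windows (GRCh38.p14, from 250 bases before to 50 bases after the gene start) are shown for OR4C46 and OR5M10 inside the domain, for OR5M1 just outside it, and for OR52B4, the first class I gene by position. Their positions are chr11:54603949-54604248, chr11:56577672-56577971, chr11:56614825-56615124 and chr11:4368337-4368636, all on the minus strand. The annotated start coincides with the start codon for OR4C46 and OR5M10 but not for OR5M1 and OR52B4. The windows are therefore not all like stretches of a gene and are not a like comparison of promoters. Capitals mark a core motif of homeodomain sites (TAATTA) and the TATA box (letters TATAAA), searched on either strand.
OR4C46: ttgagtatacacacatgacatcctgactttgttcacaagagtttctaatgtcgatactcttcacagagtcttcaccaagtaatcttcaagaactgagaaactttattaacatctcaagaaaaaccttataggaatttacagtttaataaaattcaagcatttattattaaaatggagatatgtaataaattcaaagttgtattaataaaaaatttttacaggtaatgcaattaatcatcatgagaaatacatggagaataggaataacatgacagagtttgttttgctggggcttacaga
OR5M10: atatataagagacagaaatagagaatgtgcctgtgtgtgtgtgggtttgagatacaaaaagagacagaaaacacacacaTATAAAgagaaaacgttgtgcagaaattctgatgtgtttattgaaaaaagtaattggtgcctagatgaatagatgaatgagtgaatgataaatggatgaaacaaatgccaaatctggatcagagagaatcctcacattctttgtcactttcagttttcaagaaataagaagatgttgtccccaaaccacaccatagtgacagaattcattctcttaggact
OR5M1: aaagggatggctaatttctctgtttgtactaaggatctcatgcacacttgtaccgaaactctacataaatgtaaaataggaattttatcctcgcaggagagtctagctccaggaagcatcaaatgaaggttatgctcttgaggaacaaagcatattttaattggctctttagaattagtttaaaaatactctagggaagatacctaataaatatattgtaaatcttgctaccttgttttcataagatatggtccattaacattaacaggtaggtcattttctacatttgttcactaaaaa
OR52B4: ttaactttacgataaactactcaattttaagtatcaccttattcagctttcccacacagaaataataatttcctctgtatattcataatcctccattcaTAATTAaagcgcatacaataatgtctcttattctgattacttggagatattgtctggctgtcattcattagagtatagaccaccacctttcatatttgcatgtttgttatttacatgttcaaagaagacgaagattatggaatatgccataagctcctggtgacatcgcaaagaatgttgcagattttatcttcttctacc
The window of OR5M10 held 1 match, to TATAAA, and that of OR52B4 held 1 match, to TAATTA. The windows of OR4C46 and OR5M1 held 0 matches to either motif. Their GC content was 29.3% for OR4C46, 35% for OR5M10, 33.0% for OR5M1 and 33.0% for OR52B4.

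The class I cluster was the largest of 7 clusters, which were parted wherever neighbouring receptor starts were more than 1 Mb apart. It ran from OR52B4 to OR10A3 (chr11:4367263-7941708, 3.57 Mb) and held 67 genes, namely the 55 class I genes and 12 class II genes of families OR2, OR5, OR6 and OR10. By family, 27 class I genes belonged to OR52, 22 to OR51 and 6 to OR56. Its genes started 30.3 to 33.8 Mb from the nearest domain in control ab176916, 31.3 to 34.8 Mb in control ab8898, 30.9 to 34.4 Mb in RAB5A ab176916 and 31.3 to 34.8 Mb in RAB5A ab8898. These distances differed among libraries because the left edge of the nearest domain did. The median class I distance was 32.9 and 33.9 Mb in the control libraries and 33.5 and 33.9 Mb in the RAB5A libraries. These averaged 33.4 ± 0.707 Mb (SD, n = 2) for the control and 33.7 ± 0.283 Mb (SD, n = 2) for the RAB5A group (p = 1 by exact permutation). The gap of 0.3 Mb was smaller than the spread between the control libraries.

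The absence of class I genes from domains was shared by their neighbours. The first domain of chromosome 11 began at 38.2 Mb or later in every library. The 310 protein-coding genes that start before it and are not members therefore lie outside domains by definition. The 12 class II genes of the cluster also start before it and were likewise in no domain. The beta-like globin genes HBB, HBD, HBG1, HBG2 and HBE1, which encode the haemoglobin chains of successive stages of life and sit within the cluster, were in domains in 0 of 5 cases. HBB started 33.0 Mb from the nearest domain in control ab176916, 33.6 Mb in RAB5A ab176916 and 34.0 Mb with ab8898 in both groups. Class and position are therefore bound together for these genes and cannot be told apart.

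The class II genes divided by position. The next cluster held 7 genes from OR4B1 to OR4A47 (chr11:48216810-48489722) and was wholly inside the first domain. So was the cluster of OR4C13, OR4C12 and OR4C45 (chr11:49952391-50033794), near the other end of the same domain. All 10 genes belonged to family OR4. The first 7 started 16.8 to 289 kb from the left edge of the domain, with OR4B1 the outermost and OR4A47 the innermost. The other 3 started 367 to 448 kb from the right edge. Between these groups lay 1464 kb without a receptor gene, in which 3 TRIM genes and FOLH1 started. FOLH1 encodes the folate hydrolase also known as prostate-specific membrane antigen.

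The largest class II cluster ran from OR4C46 to OR5AK2 (chr11:54603069-56989843, 2.39 Mb) and held 51 genes, of which 44 were in the second domain. Domains covered 83.7% of this cluster in each library. Starts within the domain were a median of 21.9 kb apart, with a range of 5.54 to 636 kb. The widest interval, 636 kb, separated OR4A5 from OR4A16, and so 3 genes (OR4C46, OR4A8 and OR4A5) stood apart from the other 41 near the left edge. The first 11 genes were all OR4, from OR4C46 to OR4C6, and the other 33 were 20 OR5 genes, 12 OR8 genes and 1 OR10 gene, OR10AG1.

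The 7 genes of this cluster beyond the right edge were OR5M1, OR5AP2, OR5AR1, OR9G1, OR9G4, OR5G3 and OR5AK2. OR5M1 started 14.9 kb beyond the edge, OR5AP2 42.4 kb, OR5AR1 63.7 kb, OR9G1 99.1 kb, OR9G4 149 kb, OR5G3 221 kb and OR5AK2 389 kb. The first 5 of them were within 1 bin of the domain, as were 16 of the 54 genes on the inside. With 200 kb added on each side of a domain, 59 receptor genes were reached in each library, and with 1 bin taken off each end 38 remained. The class I count was 0 in both cases.

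**Figure D2:**
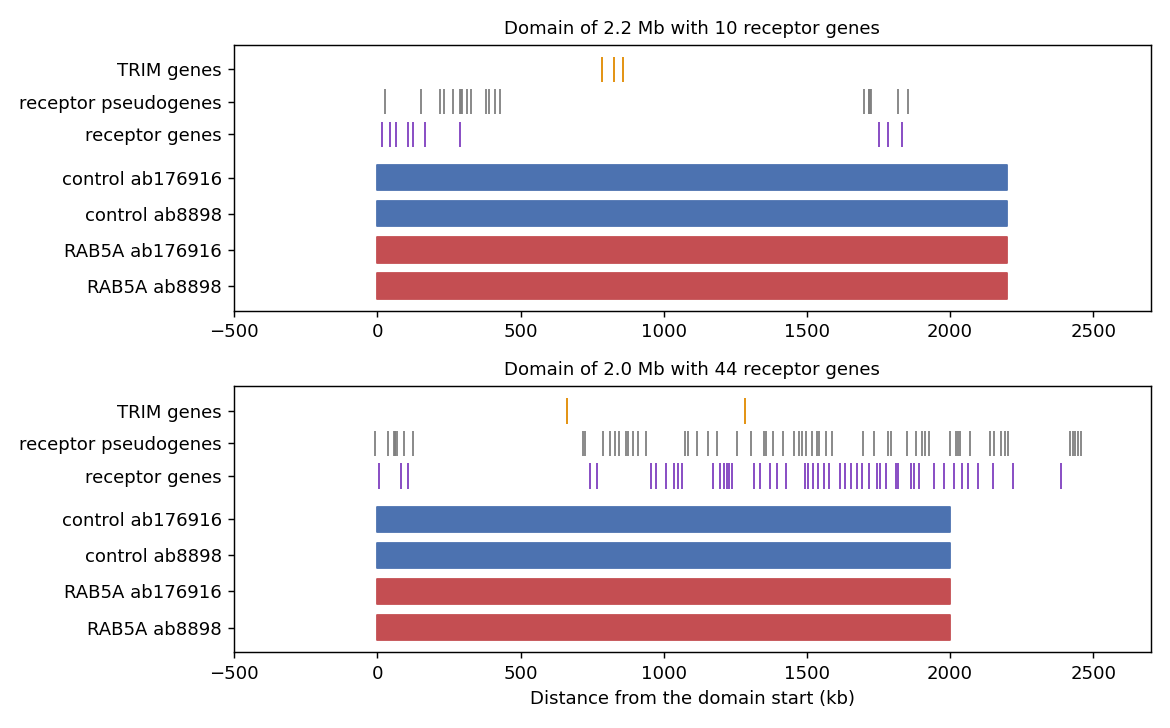
The 2 domains that hold receptor genes, with receptor genes, receptor pseudogenes and TRIM genes as ticks and the domain of each library as a bar, by distance in kb from the domain start. The 10 receptor genes of the upper domain lie near its ends, and the 44 of the lower domain continue past its right edge as OR5M1 and 6 further genes.

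Beyond 57 Mb no receptor gene was in a domain. The cluster of 21 genes from OR9Q1 to OR10V1 (chr11:58023881-59713845) lay 1.42 to 3.11 Mb past the second domain in all 4 libraries, at a receptor density of 12.4 genes per Mb against 21.4 in the partly covered cluster before it. OR2AT4 (chr11:75081753-75096876) stood alone, 18.5 Mb from a domain. The most distal cluster, 22 genes from OR6X1 to OR8A1 (chr11:123753580-124582942), had 26.5 genes per Mb, close to the 25.7 per Mb of the cluster from OR4B1 to OR4A47. Its starts were 7.15 to 7.68 Mb from the nearest domain in each library, whereas the cluster from OR4B1 to OR4A47 was entirely covered.

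Families were divided in the same way. In OR4, 21 of 26 genes were in domains (80.8%), and the 5 outside were OR4D5 in the distal cluster and OR4D6, OR4D9, OR4D10 and OR4D11 in the cluster from OR9Q1 to OR10V1. In OR5, 20 of 35 genes were in domains (57.1%), all of them among the 25 members of the largest class II cluster. In OR8, 12 of 23 were in domains (52.2%). These 12 were all the OR8 genes of the largest class II cluster, and the other 11 were all in the distal cluster. In OR10, 1 of 16 genes was in a domain (6.25%). Families OR2, OR6 and OR9, with 5 genes each, and OR1, with 2, had 0 genes in domains.

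**Figure D3:**
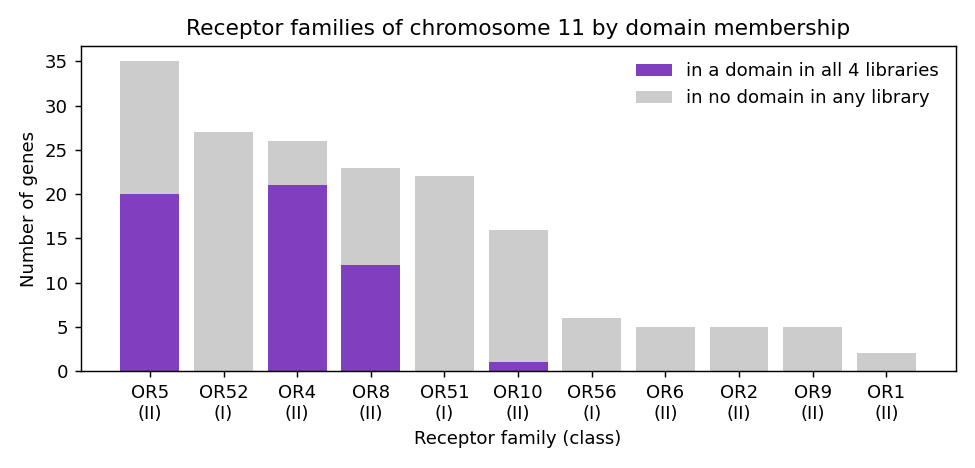
Number of genes of each receptor family of chromosome 11 in a domain in all 4 libraries (purple) and in none (grey), with the class in parentheses. OR4, OR5, OR8 and OR10 have genes on both sides, and the class I families OR51, OR52 and OR56 have none in domains.

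Sequence likeness followed the clusters. Taking for each gene the most similar coding sequence among the other 171 members, by edit distance, the closest gene lay in the same cluster for 156 of 172. Of the 54 genes in domains, 51 had their closest gene in a domain too, and of the 118 outside, 4 did. The 7 genes whose closest relative was on the other side were OR5M10 and OR5M1, described above, and OR5W2, OR10AG1, OR5AP2, OR5G3 and OR10D3, all with identities of 60.8% to 64.5%. The median identity to the closest gene was 71.1% in domains and 70.1% outside. Of the 14 genes with a copy over 95% identical, 3 were in domains, OR5M10, OR8H2 and OR8H3. Within OR8, the median identity was 62.1% between genes in domains, 68.5% between genes outside and 60.3% between the 2 sides. Within OR4 it was 63.5%, 69.4% and 60.0%. In OR5 it was 60.7% in domains, 61.4% outside and 60.6% between the sides, so that this family showed little difference.

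Coding length was alike on both sides, and the extent of the gene models was not. The coding length ranged from 906 to 1110 bases, with a median of 936 in domains and 942 outside. The annotated gene had a median length of 964.5 bases in domains and 2091 bases outside. The annotated start coincided with the start codon for 34 of the 54 genes in domains and 46 of the 118 outside. For such genes the first exons upstream of the coding sequence are not annotated, and the true start may lie further away. Requiring both RefSeq gene ends within 1 domain, which could be asked of all 172 genes, gave the same count of 54 in each library. On the plus strand were 35 of the 54 genes in domains and 55 of the 118 outside.

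The promoter windows were compared over the 133 members with a RefSeq window, 44 of them in domains. An ATG stood at the RefSeq start in 61.4% of windows in domains and 2.56% of all windows. The share was 41.2% for class II windows outside and 42.1% for class I windows. Such windows may not reach the promoter, and the part that this has in the GC and motif values below was not tested. The median GC content of the windows was 32.8% in domains, 39.3% for the 51 class II genes outside and 40.0% for the 38 class I genes, against 58.3% over 27305 windows of all genes. TAATTA was found in 13 of 44 windows in domains (29.5%), in 12 of 51 windows of class II genes outside (23.5%), in 6 of 38 class I windows (15.8%) and in 4.98% of all windows. TATAAA was found in 36.4% of the windows in domains, 29.4% of class II windows outside, 42.1% of class I windows and 11.95% of all. Both motifs consist of A and T, and the part that the low GC content of the windows has in these shares was not tested. Both strands were searched, and a match is not evidence of a site in use.

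Over 200 kb windows, GC content differed in the same direction. The 12 windows that held receptor genes and were called had a median of 36.95% (34.8% to 40.9%). The 18 windows with class II genes alone that were not called had a median of 39.0% (36.6% to 45.3%), and the 10 windows with class I genes 38.9% (36.1% to 41.0%). The ranges overlapped. The 50 windows called in all 4 libraries without a receptor gene had a median of 37.8%, and the 673 windows of chromosome 11 with sequence 40.4%. The ratio of observed to expected CpG dinucleotides was 0.171 in called receptor windows and 0.188 in the 28 receptor windows not called.

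**Figure D4:**
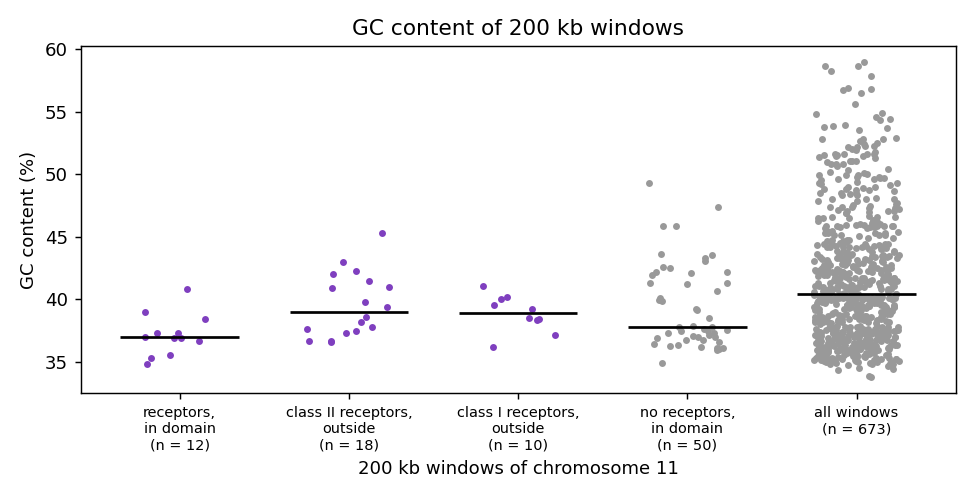
GC content (%) of 200 kb windows of chromosome 11, 1 point for each window, with a line at the median of each group. Called receptor windows centre on 36.95% and receptor windows outside domains near 39%, with overlapping ranges.

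The domains with receptor genes held few other coding genes. In the first, 4 protein-coding genes besides the 10 members had their start, TRIM51G, TRIM49B, TRIM64C and FOLH1. In the second, 4 besides the 44 members did, TRIM48, TRIM51, OR5D3P (a receptor gene that the symbol rule leaves out) and ENSG00000284732. Receptor pseudogenes were also there, 21 in the first domain and 48 in the second. These 69 were 35.6% of the 194 receptor pseudogenes of chromosome 11, beside 31.4% for the coding members. Of the 22 TRIM genes of chromosome 11, a family with many RING finger ubiquitin ligases, 5 were in a domain in every library and 17 in none. Those in domains were the 5 named above. Their relatives TRIM49, TRIM49C, TRIM49D1, TRIM49D2, TRIM64, TRIM64B and TRIM77 lay 24.6 to 24.9 Mb from a domain on the long arm, and TRIM3, TRIM5, TRIM6, TRIM21, TRIM22, TRIM34 and TRIM68, within the class I cluster, were in none. TRIM49 and TRIM64 copies are closely related, and whether reads were shared among them was not tested.

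Genes of the pathway that olfactory receptors act in were looked up as well. The share in domains over all protein-coding genes was 7.20% to 8.15%, and these lists are too short to be set apart from it. Of 10 olfactory signalling genes, 1 was in a domain in each library, CNGA2 on chromosome X, which encodes a subunit of the olfactory cyclic nucleotide-gated channel. Both of those on chromosome 11 were outside. CNGA4, encoding a further channel subunit, lies within the class I cluster, 32.0 to 33.0 Mb from a domain, and OMP, the olfactory marker protein, was 20.5 Mb away. Of those elsewhere, CNGB1 on chromosome 16, which encodes another subunit of the channel, lay 0.829 Mb from a domain in each library. Of the receptor choice factors LHX2, EBF1, LDB1, EMX2 and KDM1A, 0 of 5 were in a domain. Of 9 genes of H3K9 methylation and its readers, SUV39H1, a methyltransferase gene on chromosome X, was in a domain in all 4 libraries. TRIM28, encoding the corepressor KAP1, was in a domain with ab8898 alone in both conditions. With ab176916 it started 0.144 Mb from a domain, less than 1 bin of 200 kb.

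The authors' scores, which have no stated unit, were used to rank domains within each list. The first receptor domain had a score of 12.9 in control ab176916, 14.2 in control ab8898, 13.3 in RAB5A ab176916 and 13.8 in RAB5A ab8898. The second had 9.83, 10.4, 8.85 and 9.11 in the same order, lower than the first in every list. As a percentile of the domains in its list, the first stood at 48.7% and 50% in the control and at 51.9% and 47.4% in the RAB5A libraries, near the middle. It averaged 49.4% ± 0.91 (SD, n = 2) for the control and 49.6% ± 3.2 (SD, n = 2) for the RAB5A group (p = 1 by exact permutation).

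The second domain, with 44 receptor genes, stood at 29.5% and 22.4% in the control libraries and at 21.5% and 10.5% in the RAB5A libraries. Both RAB5A values were below both control values, which by itself means a fall with each antibody. They averaged 25.9% ± 5.03 (SD, n = 2) for the control and 16.02% ± 7.77 (SD, n = 2) for the RAB5A group. The difference of -9.91 percentage points was larger than either SD, but its p of 0.333 by exact permutation is the smallest that 2 libraries against 2 can give, so it could not pass a threshold. Of 66 domains matched across the 4 lists by at least 50% reciprocal overlap, 6 had both RAB5A percentiles below both controls (9.09%), and the fall of the second receptor domain ranked 1 among the 66. With the score divided by the number of bins, the percentiles were 42.3% and 32.9% in the control and 29.1% and 22.4% in the RAB5A libraries. On that scale 16 of 66 domains had both RAB5A values below both controls (24.2%), and the fall of -11.9 points ranked 2. This domain was singled out after its values were seen.

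Because of this low rank, the count of 54 depended on the score. When domains scoring below the first quartile of a list were dropped, the second domain passed in control ab176916, where its score of 9.83 lay just above the quartile of 9.68. It failed in control ab8898 (10.4 against 10.7), in RAB5A ab176916 (8.85 against 9.34) and in RAB5A ab8898 (9.11 against 10.2). The receptor genes in domains then numbered 54 in control ab176916 and 10 in each of the other 3 libraries.

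**Figure D5:**
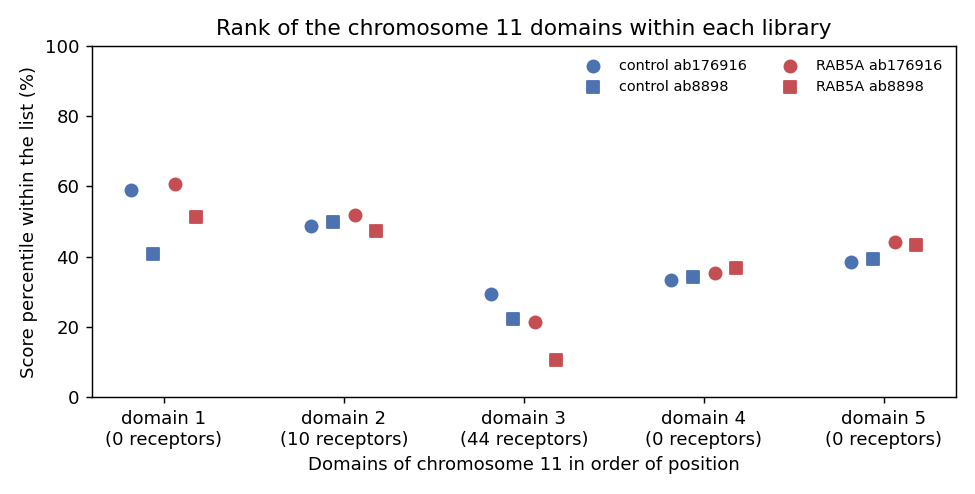
Percentile of the authors' score within its own list (%) for the 5 domains of chromosome 11 in order of position, with 1 point for each library, blue for control and red for RAB5A, circles for ab176916 and squares for ab8898. Domain 3, with 44 receptor genes, is the lowest on this scale in every library and stands at 29.5% and 22.4% in control and 21.5% and 10.5% in RAB5A cells. With the score divided by the number of bins, domain 1 was the lowest instead, at 2.56% and 2.63% in control and 6.33% and 7.89% in RAB5A cells.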

How the data were processed

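H3K9me3 ChIP-seq domains of 4 libraries were used, and the 2 input libraries were not analysed here. The authors trimmed reads with Trimmomatic 0.39, aligned them to hg38 with BWA 0.7.17-r1188, marked duplicates with Picard 2.22, kept mapping quality of 1 or more with SAMtools 1.9, and called domains in each library with EDD against input (200 kb bins, gap penalty 25, informative fraction 0.98). The deposited score of each domain has no stated unit and was used for ranks within a list. How reads of near-identical receptor copies were assigned, and whether that moved a call, was not tested, since the lists hold no reads. The lists give no depth, so no counting error can be given.

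Gene starts came from GENCODE 44, and a gene was in a domain when its start lay between the domain's ends. The test between groups was an exact permutation test, two-sided, over 6 labellings, with a smallest p of 0.33. Replicate numbers stand for antibodies, per the labels, so the pairing by antibody was an alternative, with a smallest p of 0.5. Other alternatives changed the domain filter, the definition of a gene in a domain, the cluster gap and the replicates. Genes were named as the first and last of each cluster and those nearest to domain edges, together with lists of globin, TRIM, olfactory signalling, receptor choice and H3K9 methylation genes. Other genes, and the likeness, promoter and score comparisons, were added after the data were seen. Members and lists were chosen with earlier results of these data known. Functions were tested on simulated data. Python 3.11.15, NumPy 2.4.6, pandas 2.3.3, SciPy 1.17.1 and edlib 1.3.9 were used.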

Additional observations from a re-analysis of the deposited data

How the results depend on the processing

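Over 72 alternative values for 7 results, 67 were labelled unchanged, 5 moved and 0 reversed. Unchanged meant within the larger of the replicate spreads under the main and the alternative setting, except for the count of members in a domain of all 4 libraries. Many values had no room to move. The class I count was 0 under every setting, and a filter for domains of at least 1 Mb could remove neither receptor domain. The tally is therefore not a measure of robustness. That count was allowed a limited fold change instead. Its values of 59 within 200 kb of a domain, 38 with shortened domains and 55 with symbols ending in P, against 54, were therefore labelled unchanged. Keeping domains at or above the lower score quartile cut the members in a domain of all 4 libraries from 54 to 10, since the second receptor domain failed in 3 lists, and changed the class I minus class II share from -46.2 to -17.9 percentage points. With it, the RAB5A minus control difference in members went from 0 to -22, within the spread of the control libraries under that filter. This was labelled unchanged only because the filter itself raised the pooled SD from 0 to 22. The covered length (-0.9985 Mb, SD 0.9985) and the median distance (0.2078 Mb, SD 0.2078) were labelled unchanged in the same way. The class difference was -50.4 points within 200 kb of a domain, -32.5 with domains shortened by 1 bin at each end, and -45.5 with 6 protein-coding symbols ending in P included, the last 2 chosen after the data were seen. Because calls were identical in all 4 libraries, the paired analysis by antibody (replicate block) could only return a difference of 0 members (exact sign-flip test, p = 1). Leaving out either replicate could likewise only give 0, so neither is a check of the result. The replicate block changed no other call. Depth and signal below the calling threshold are not visible in these lists.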
